A study of Rattus norvegicus with 10 samples.

Results

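The mitochondrial genome was represented by 14 of the 176032 tiles of 1000 bp in the deposited table, namely every tile that the table places on the chromosome called MT. Libraries of hippocampal DNA from 10 rats, 4 HCR and 6 LCR, were made by RRBS, a method that cuts DNA at MspI sites before bisulfite conversion and therefore reads only part of any genome. HCR and LCR rats are of generation 44 of lines bred for high or low running capacity from a genetically mixed stock. All 10 rats were females aged 23 to 24 months without exercise training, and no treatment is named. Rats 1, 11, 15 and 19 are HCR and rats 12, 18, 22, 24, 26 and 30 LCR, and each rat is 1 replicate. According to the methods, all animals also took a treadmill test of oxygen uptake run to exhaustion and were trained in a water maze. Another 2 HCR rats were left out by the authors after sequencing, on quality control that included a PCA, and are not analysed here. The lines were bred apart, so running capacity and any other inherited difference cannot be told apart. The tissue was not sorted, so the mitochondrial DNA of all hippocampal cell types is mixed, and a different mix of cells cannot be told apart from a difference within cells. The tissue label was not checked, since no list of methylation markers of the hippocampus was used.

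Mitochondrial DNA is a small circular genome present in many copies per cell. It encodes its own ribosomal RNAs, a set of transfer RNAs and a few subunits of respiratory chain complexes I, III and IV and of ATP synthase, while all other mitochondrial proteins come from nuclear genes. Its control region holds the displacement loop, the promoters of both strands and an origin of replication. Unlike nuclear DNA it carries no histones, and whether its CpGs are methylated to any relevant extent has long been debated, because low values can also come from cytosines that bisulfite did not convert and from nuclear copies of mitochondrial sequence. Reads of such nuclear copies cannot be told apart from mitochondrial reads in a table of percentages.

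The 14 tiles cover most of the genome in mRatBN7.2 coordinates. No row was found from 3001 to 5000 or from 11001 to 12000, stretches where Nd1 ends, Nd2 lies and Nd4 passes into Nd5. Gene content is given from the well-known gene order of the rat mitochondrial genome, without an annotation file, so a gene that crosses a tile border may be missing from a description. The tiles at 1 to 1000, 1001 to 2000 and 2001 to 3000 hold the 12S and 16S ribosomal RNA genes, the last also the start of Nd1. Next come the tile of a tRNA cluster and the start of Co1 (5001 to 6000), the tile of Co1 (6001 to 7000), the tile of Co2, Atp8 and the start of Atp6 (7001 to 8000), the tile of Atp6 and Co3 (8001 to 9000) and the tile of Co3 and Nd3 (9001 to 10000). The tile of Nd4l and Nd4 (10001 to 11000), those of Nd5 (12001 to 13000) and of Nd5 and Nd6 (13001 to 14000), and the tile of Cytb (14001 to 15000) follow. The control region begins in the tile from 15001 to 16000, after the end of Cytb, and fills the last tile, which is listed as 16001 to 17000 although the circle closes inside it.

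Mean methylation was low in all 14 mitochondrial tiles. The means of the tiles over the rats ran from 0.139% to 2.36%, with a median of 0.720%, and of the 138 values in single rats 128 were at or under 2%. An exact 0 was listed for 35 values. The number of reads behind a percentage is not listed, so no counting interval or detection limit is given, and a value listed at 0 is not a measured absence. In 12 of the 14 tiles no rat lacked a value, and each rat's mean over these complete tiles ran from 0.449% in LCR rat 26 to 1.22% in LCR rat 24, a ratio of 2.73. In the same rats the mean over all complete tiles of the table was 43.9% to 51.3%. Values were missing in 2 tiles, that of Co1 for HCR rat 1 and that of Co3 and Nd3 for HCR rat 19.

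**Figure D1:**
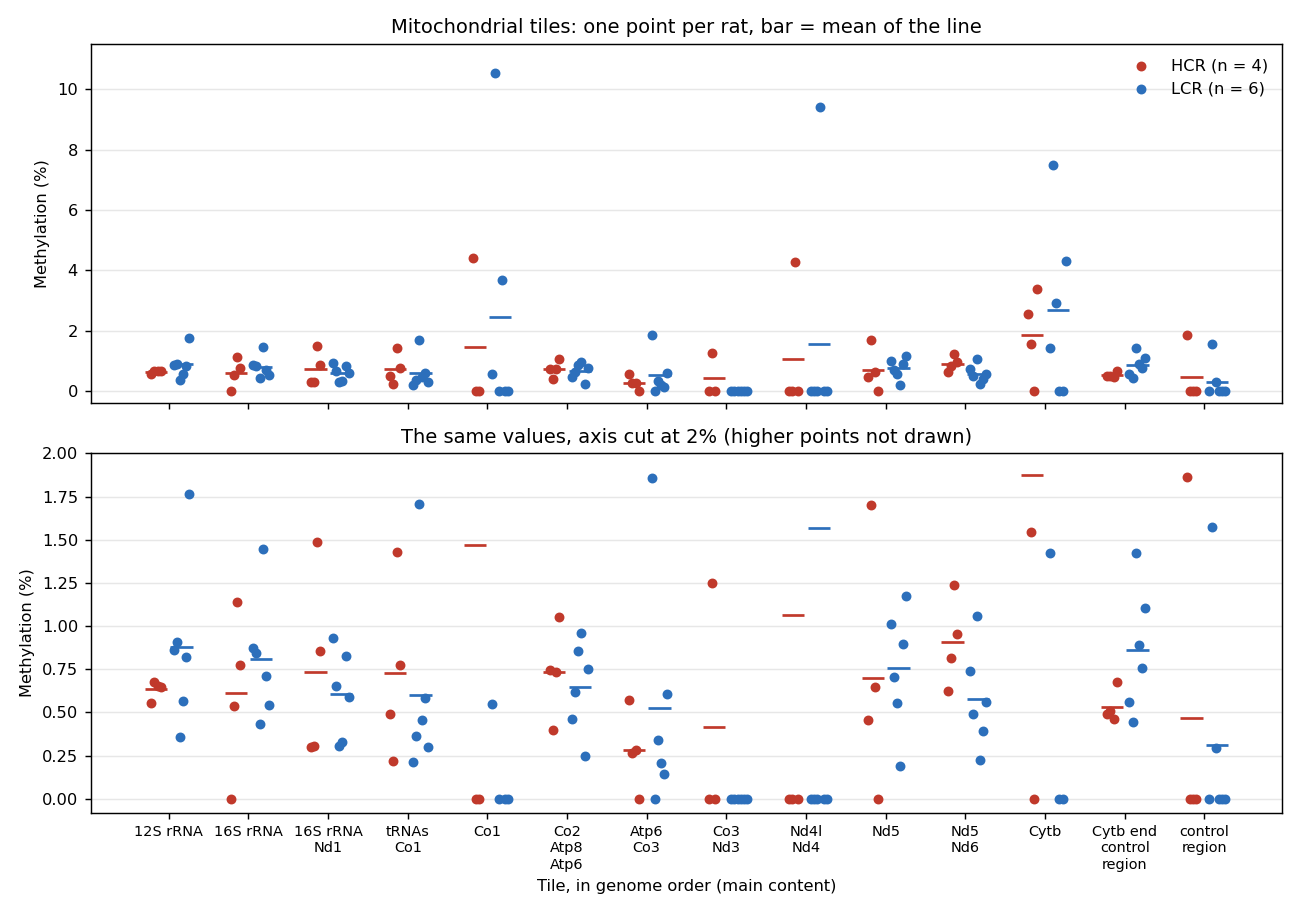
Percent methylation of the 14 mitochondrial tiles in genome order, 1 point per rat with HCR (n = 4) and LCR (n = 6) side by side and a bar at the mean of each line; the lower panel shows the same values with the axis ending at 2%. Most points lie under 2%, and the 10 values above 2% fall in the tiles of Co1, of Nd4l and Nd4, and of Cytb.

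The tiles fell into 2 kinds by how steady they were between rats, a division made after the values were seen and therefore not tested. Reads per tile are not listed, so whether the 2 kinds differ in depth was not tested. In 6 tiles every rat had a value above 0. These are the tile of the 12S ribosomal RNA, the tile of the 16S ribosomal RNA and Nd1, the tile of the tRNA cluster and Co1, the tile of Co2, Atp8 and Atp6, the tile of Nd5 and Nd6, and the tile of Cytb's end and the control region. Their means lay close together, from 0.653% to 0.781%, and single rats ran from 0.211% to 1.77%. The SD between rats was 0.254 to 0.515 percentage points in these tiles. In the other 8 tiles at least 1 rat was listed at 0, and their means ran from 0.139% to 2.36%. Single rats in these 8 tiles reached 10.5%, and the SD between rats was 0.397 to 3.59 points. A percentage above 0 sets a lower bound on the cytosines read: 0.211% needs many, while 10.5% could rest on few. The order of the tiles by mean was thus set at both ends by tiles in which some rats were at 0, and the means of the 6 steady tiles lay within less than the SD between rats in any of them.

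The 3 tiles of the ribosomal RNA genes, which supply the RNA of the mitochondrial ribosome, had similar means and similar SDs between rats. The tile of the 12S gene averaged 0.781% ± 0.382 (SD, n = 10), that of the 16S gene 0.731% ± 0.397 (SD, n = 10) and that of the 16S gene and Nd1 0.658% ± 0.383 (SD, n = 10). HCR rat 1 was the only rat listed at 0 in any of them, in the tile of the 16S gene. Over these 3 tiles together single rats ran from 0.285% in HCR rat 1 to 1.09% in HCR rat 15. The 7 other complete tiles outside the control region averaged 0.991%, against 0.723% for the ribosomal RNA tiles. The ribosomal RNA tiles were lower in 8 of 10 rats, by 0.268 ± 0.393 points (SD, n = 10) on average, and this difference is smaller than its spread between rats.

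Among the tiles of complex IV, whose subunits Co1, Co2 and Co3 pass electrons to oxygen, that of Co1 had the largest range of all 14. HCR rats 11, 15 and 19 were at 4.41%, 0% and 0% there, with no value for HCR rat 1. LCR rats ran from 0% over a median of 0.275% to 10.5% in LCR rat 18, with LCR rat 24 at 3.67%. A few rats of both lines were therefore high and 5 of 9 were listed at 0. The tile of Co2, Atp8 and Atp6, which also holds subunits of ATP synthase, was the steadiest of all, at 0.683% ± 0.254 (SD, n = 10), between 0.245% and 1.05%. The tile of Atp6 and Co3 was at 0.428% ± 0.542 (SD, n = 10), with LCR rat 12 at 1.86% and no other rat above 0.607%. The tile of Co3 and the complex I gene Nd3 had the lowest mean of all, 0.139%. HCR rat 11 was at 1.25% there, and the 8 other rats with a value were listed at 0.

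Complex I takes electrons from NADH, and its subunits Nd4l, Nd4, Nd5 and Nd6 lie in 3 of the tiles. In the tile of Nd4l and Nd4, LCR rat 24 was at 9.41% and HCR rat 15 at 4.27%, and the 8 other rats were listed at 0. Without LCR rat 24 the mean of this tile was 0.474% in place of 1.37%. The tiles of Nd5 and of Nd5 and Nd6 were at 0.733% ± 0.492 and 0.709% ± 0.314 (SD, n = 10 each), close to the ribosomal RNA tiles.

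The tile of Cytb, the only mitochondrially encoded subunit of complex III, had the highest mean, 2.36% ± 2.35 (SD, n = 10). HCR rats 1, 11, 15 and 19 were at 2.56%, 1.54%, 0% and 3.39%. LCR rats ran from 0% over a median of 2.17% to 7.50% in LCR rat 18, with LCR rat 30 at 4.31%. Both lines therefore held rats at 0 and rats above 2%. It was the tile with the highest value of the rat in 4 of 10 rats, against 2 rats each for the tile of Co1 and for that of Nd4l and Nd4. Without LCR rat 18 its mean was 1.79%, still the highest of the 12 complete tiles, yet the spread of 2.35 points between rats is as large as the mean.

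The control region end of the genome did not stand above the rest. In the tile that holds the end of Cytb and the start of the control region, HCR rats 1, 11, 15 and 19 were at 0.488%, 0.509%, 0.459% and 0.676%. LCR rats ran from 0.444% over a median of 0.824% to 1.42% in LCR rat 22. The 4 HCR rats sat close together at the low end of the LCR range. The tile wholly inside the control region is cut short where the circle closes, so it spans less than 1000 bp. In it, HCR rat 1 was at 1.87% and HCR rats 11, 15 and 19 were listed at 0. LCR rats ran there from 0% over a median of 0% to 1.57% in LCR rat 18. Thus 7 of 10 rats were listed at 0 in the last part of the control region, and 0 of 10 in the tile where it begins.

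Over both control region tiles the rats averaged 0.552% ± 0.341 (SD, n = 10), against 0.911% ± 0.292 (SD, n = 10) over the 10 other complete tiles. The control region end was lower in 8 of 10 rats, the exceptions being HCR rat 1, higher by 0.546 points, and LCR rat 22, higher by 0.00530 points. The mean difference was -0.359 points with an SD between rats of 0.450, in HCR rats -0.328 ± 0.632 (SD, n = 4) and in LCR rats -0.379 ± 0.353 (SD, n = 6). The difference is smaller than its spread, and no p is given for averages over tiles. It varied with the summary. It was -0.538 points for the tile wholly inside the control region alone, -0.439 against tiles without a ribosomal RNA gene and -0.388 with all 14 tiles, but -0.0661 between medians and 0.0341 among tiles above 0 in every rat. Without the rat that moved it most, HCR rat 1, it was -0.459 points.

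The lines were then compared in each tile, to see whether running capacity goes with mitochondrial methylation. The test was limma on the percent values, fitted over 176004 tiles with at least 3 values per line. A tile was called where the p adjusted after Benjamini-Hochberg was under 0.1 and the line means lay 5 points or more apart. The study put these limits on another test, made on counts, so the shares called here are not those of the study. Of the 14 mitochondrial tiles 0 were called, where 0.0858% of all tested tiles were. At an unadjusted p under 0.05 with no limit on size, 0 of 14 passed, where 7.18% of all tested tiles did, and ordinary t statistics also gave 0. The lines overlapped in all 14 tiles, and they did not overlap in 2.69% of all tested tiles. A count of 0 among 14 is near these background shares, and the 5 points asked of a call are more than the mean of any mitochondrial tile.

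HCR rats had the higher mean in 6 of the 14 tiles and LCR rats in 8. The median difference, HCR minus LCR, was -0.125 points over the mitochondrial tiles, and it was 1.01 points over all tested tiles, of which 64.7% were higher in HCR rats. Nuclear tiles of similar level, with a mean under 2.5%, had a median difference of 0.0411 points, 56.1% of them being higher in HCR rats. The smallest p among the mitochondrial tiles belonged to that of Co3 and Nd3, at 0.417% in HCR and listed at 0 in all LCR rats, with an adjusted p of 0.843 from limma. In a 2-sided exact permutation test over the 84 splits of the 9 rats with a value p was 0.333, and the difference came from HCR rat 11 alone. With only 1 value above 0 this test could give no smaller p, so it cannot decide on a line difference. The tile of Nd5 and Nd6 averaged 0.908% ± 0.260 (SD, n = 4) in the HCR line against 0.577% ± 0.290 (SD, n = 6) in the LCR line, with a limma adjusted p of 0.844. The tile at the end of Cytb and the start of the control region was at 0.533% ± 0.0973 (SD, n = 4) against 0.863% ± 0.361 (SD, n = 6), with a limma adjusted p of 0.848.

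The largest difference in points was in the tile of Co1, where 3 HCR rats averaged 1.47% ± 2.55 (SD, n = 3) and the LCR rats 2.46% ± 4.20 (SD, n = 6). This is -0.987 points, with a limma adjusted p of 0.957 and a 95% interval from -6.14 to 4.17 points. Without LCR rat 18 the difference was 0.626 points. In the tile of Nd4l and Nd4 the difference of -0.502 points became 1.07 without LCR rat 24, and -1.57 without HCR rat 15. A p above the limit does not show that the lines are alike. The 95% intervals lay within 5 points either way in 13 of 14 tiles, Co1 being the exception, and within 1.5 points in 11 of 14. Their width depended on the mean-variance trend of the fit, without which they lay within 5 points in 12 of 14 tiles and within 1.5 points in 0 of 14.

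**Figure D2:**
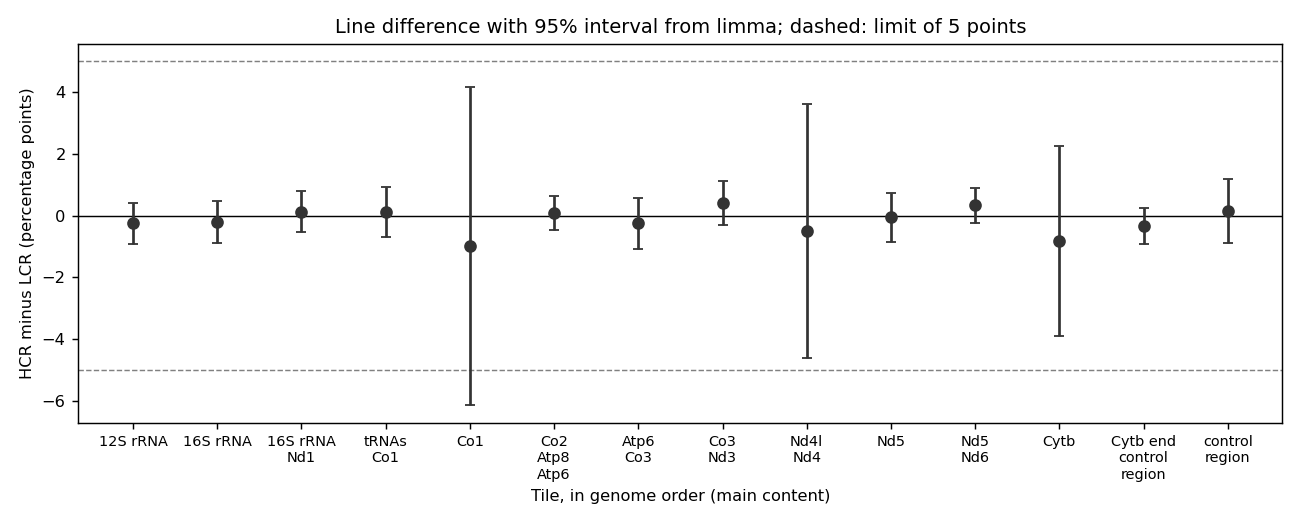
Difference between the line means (HCR minus LCR, in percentage points) in each of the 14 mitochondrial tiles, with bars for the 95% interval from limma and dashed lines at 5 points either way. All intervals include 0, and those of the tiles of Co1, of Nd4l and Nd4, and of Cytb are the widest.

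Averaged over the 12 complete tiles, the HCR rats were at 0.773% ± 0.187 (SD, n = 4) and the LCR rats at 0.903% ± 0.288 (SD, n = 6). HCR rats ran from 0.580% to 1.03% and LCR rats from 0.449% to 1.22%, so the LCR range contained the HCR range. The difference of -0.130 points is smaller than the spread in either line. Over the 6 tiles above 0 in every rat the lines were at 0.712% and 0.696%, a difference of 0.0157 points, and by medians over tiles it was 0.0311 points. Its sign therefore changed with the tiles and the summary used. Without HCR rat 11 the difference was -0.0664 points and without LCR rat 24 it was also -0.0664, while it was -0.0762 without LCR rat 18, -0.216 without HCR rat 15 and -0.221 without LCR rat 26.

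No rat was high or low across all mitochondrial tiles. Of the 6 steady tiles, HCR rat 15 and LCR rat 22 were each the highest rat in 2, and HCR rat 19 and LCR rat 30 in 1 each. LCR rat 22 was also the lowest rat in 1 of them. Over the 15 pairs of these tiles, Pearson's r across the 10 rats had a median of 0.125 and ran from -0.485 to 0.685, given as a description since the tiles share libraries.

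To place these levels against the background of bisulfite sequencing, nuclear tiles that are next to unmethylated were taken from chromosomes 1 to 20 and X. For each rat these were the complete tiles with a mean under 1% in the 9 other rats, so that a rat's own value did not choose its tiles. Each rat had 4844 to 5726 of them. They averaged 0.950% ± 0.0907 (SD, n = 10), from 0.724% in LCR rat 26 to 1.03% in HCR rat 15. The lines were at 0.971% ± 0.0639 (SD, n = 4) and 0.937% ± 0.109 (SD, n = 6), and the ranges overlapped. In each rat 3.70% to 8.21% of these nuclear tiles were listed at 0.

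The mitochondrial mean was lower than this nuclear level in 7 of 10 rats, with a mean difference of -0.0994 ± 0.191 points (SD, n = 10), and higher in LCR rats 18, 24 and 30. Over the 6 steady mitochondrial tiles, at 0.703% ± 0.185 (SD, n = 10), the level was below the nuclear one in 10 of 10 rats, with a mean difference of -0.248 points. These 6 tiles were chosen on the same values, as having no rat at 0, and the nuclear tiles were not. That choice left out the tiles of Cytb (2.36%) and of Nd4l and Nd4 (1.37%). Those of Atp6 and Co3 (0.428%) and of the control region (0.373%) were left out too. The distance between the mitochondrial and the nuclear level also depends on how the nuclear tiles are defined. With a limit of 2% their mean was 1.23% and the mitochondrial mean lay under it in all 10 rats. With a limit of 0.5%, met by only 181 to 210 tiles per rat, their mean was 0.852%. The mitochondrial mean was then higher in 4 of 10 rats and the mean of the 6 steady tiles in 2 of 10, and the average difference of the mitochondrial mean was -0.00075 points.

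**Figure D3:**
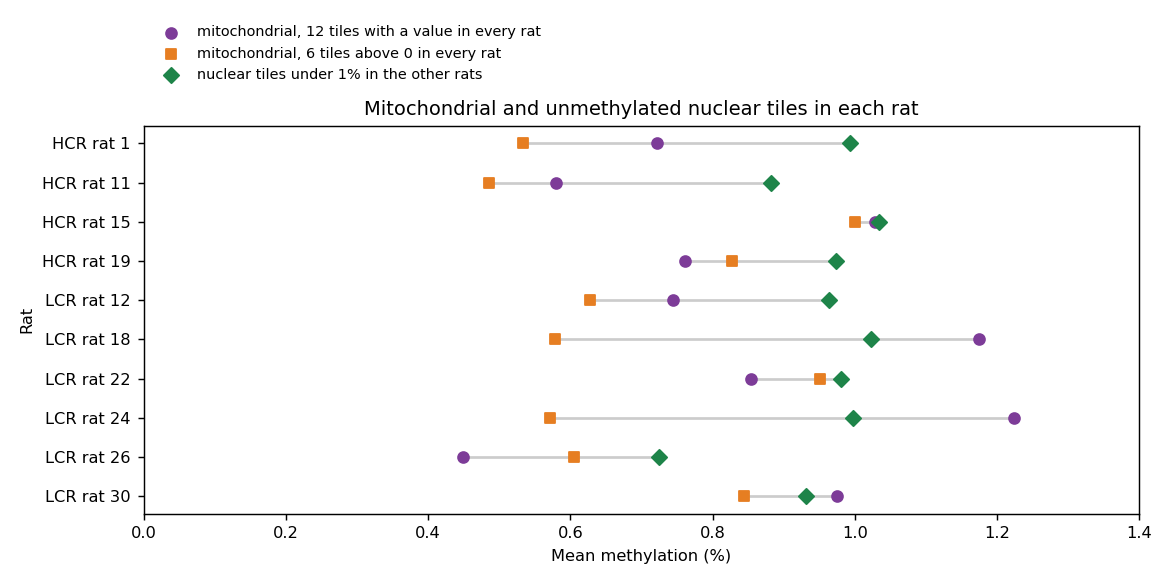
Mean methylation in percent for each of the 10 rats over the 12 complete mitochondrial tiles (circles), the 6 mitochondrial tiles above 0 in every rat (squares) and the nuclear tiles with a mean under 1% in the other rats (diamonds). The squares lie to the left of the diamonds in all 10 rats, and the circles in 7. The 6 tiles of the squares were chosen on these same values, and the nuclear tiles were not filtered in that way.

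Few nuclear tiles reached levels as low as the mitochondrial average. Of 126198 complete nuclear tiles, 20.7% had a mean under 5% and 4.28% under 1%. A mean at or under the mitochondrial average of 0.851% was found in 1.74%. The nuclear tiles at the low end were most frequent between 1% and 1.1%, with 2693 tiles in that step of 0.1 points. Of the 12 complete mitochondrial tiles, 10 had a mean below this step and 2, those of Nd4l and Nd4 and of Cytb, above it. For the steadiest mitochondrial tile, that of Co2, Atp8 and Atp6, 0.544% of the nuclear tiles had a lower mean. For the tile inside the control region it was 0.0475%, for the tile of Nd4l and Nd4 10.8% and for the tile of Cytb 16.2%.

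**Figure D4:**
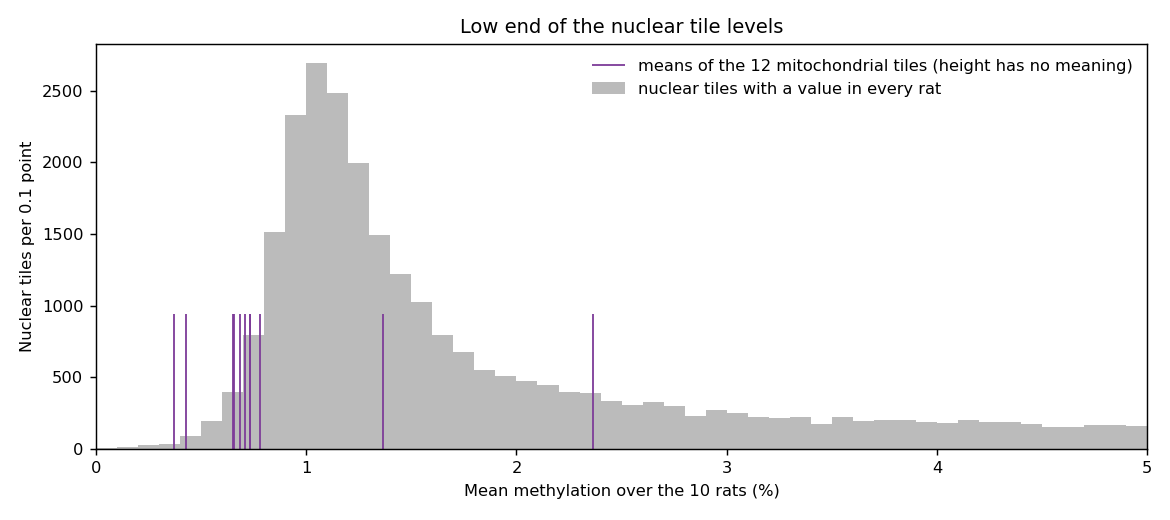
Number of nuclear tiles complete in all rats (grey bars, steps of 0.1 points) by their mean methylation over the 10 rats in percent, shown up to 5%, with purple lines at the means of the 12 mitochondrial tiles. The bars peak between 1% and 1.1%, and 10 of the 12 lines stand to the left of the peak.

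The spread between rats was set beside that of nuclear tiles of the same level. At a mean of 0.5 to 1%, 5232 nuclear tiles had a median SD of 0.326 points. The 8 mitochondrial tiles in this band had SDs of 0.254 to 0.515 points with a median of 0.383, all inside the range from 0.166 to 0.873 that the 5th and 95th percentiles of the nuclear tiles mark. At 1 to 2.5% the 15494 nuclear tiles had a median SD of 0.469 points and a 95th percentile of 1.51. The tiles of Nd4l and Nd4 and of Cytb, the 2 mitochondrial tiles in this band, were at 3.13 and 2.35 points, beyond that percentile. The tile of Nd4l and Nd4 came into this band only through LCR rat 24, without which its mean was 0.474%. The same value enters its SD, so its wide spread follows in part from its placement. A value above 5% in at least 1 rat was found in 4.57% of the nuclear tiles of this band and in both mitochondrial ones. The 2 other complete tiles lay under 0.5%, where few nuclear tiles lie, and were not set beside any. Their SDs exceeded their means, at 0.542 points for the tile of Atp6 and Co3 and 0.719 points for the control region tile.

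Across the 10 rats, the mitochondrial mean and the unmethylated nuclear level had a Pearson's r of 0.755 and a Spearman's rho of 0.758, both given without a p because the first is an average over the tiles described here. LCR rat 26 was lowest in both. Without HCR rat 11 and LCR rat 26, the 2 rats farthest from the median nuclear level, r was 0.443, so the relation rested in large part on them. For the 6 steady tiles r was 0.301 and rho 0.188. Between the mitochondrial mean and the overall methylation of a rat r was 0.147 and rho 0.139, and for the 6 steady tiles they were -0.337 and -0.491. According to the methods, libraries were pooled by 8 before bisulfite conversion. The members of a pool are not named, so values within pools are not given, and the part of conversion in the levels was not tested.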

How the data were processed

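RRBS libraries of hippocampal DNA from 4 HCR and 6 LCR rats were analysed, with groups from the sample labels. Upstream, the authors used Trim Galore 0.6.10 for trimming and Bismark, running Bowtie2, for alignment to the mRatBN7.2 assembly, removed CpGs under 5 reads or above the 99.9th percentile of coverage, and summed the rest with methylKit in 1000 bp tiles with at least 3 CpGs. How the upper limit met mitochondrial CpGs, which are present in many copies, was not tested. The deposited table used here gives the percent methylation of each tile in each rat. It holds no read counts, so depth is not known from it beyond the lower bound that a percentage above 0 sets. The study's chi-square test on counts was not run.

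Tiles with at least 3 values per line that varied between rats were compared with limma 3.58.1 in R 4.3.3 (mean-variance trend, no covariate). Adjustment after Benjamini-Hochberg covered all tested tiles. A limma fit of the same form was tried on simulated data for complete tiles only. Missing values and the limit of 3 values per line were not covered by it. Summaries were made in Python 3.11.15 (pandas 2.3.3, NumPy 2.4.6, SciPy 1.17.1) and drawn with Matplotlib 3.10.9. All mitochondrial tiles were described. Values of single rats were given for the control region tiles and those of highest or lowest mean, largest difference, smallest p or missing values. The tile of Nd4l and Nd4 was added after its values were seen. Members and lists were chosen with earlier results of these data known. Alternatives were other scales, no trend, complete tiles, equal rat means, ordinary t statistics, medians, other sets of tiles and leaving out each rat. Sequences, and promoters of nuclear genes for mitochondrial DNA maintenance, are not used here.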

Additional observations from a re-analysis of the deposited data

Results flagged for a closer look

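Some rats stood apart from the other rats of their line, by Dixon's ratio of the gap to the range. Over 33 sets of values, each 1 line in 1 tile or summary, 8 such values were found. Chance gives about 1 in 20 for normally distributed values, a rate that does not hold here, since so many values are listed at 0. Where all others of a line are at 0, as for 3 of the 8, any value above 0 stands apart by construction. LCR rat 18 was highest at 10.5% in the tile of Co1 (next 3.67%) and at 1.57% in the control region tile (next 0.293%). LCR rat 24 was at 9.41% and HCR rat 15 at 4.27% in the tile of Nd4l and Nd4, where every other rat was listed at 0. HCR rat 1 was at 1.87% in the control region tile, where the 3 other HCR rats were listed at 0. LCR rat 22 was at 1.70% in the tile of the tRNA cluster and Co1 (next 0.584%), and LCR rat 12 at 1.86% in the tile of Atp6 and Co3 (next 0.607%). In the unmethylated nuclear tiles, LCR rat 26 was lowest at 0.724% (next 0.932%).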

How the results depend on the processing

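The count of 0 mitochondrial tiles at an unadjusted p under 0.05 held in each setting and without each rat. Over all tiles, calls were 151, and 67 and 48 on log2 ratio scales with offsets of 1 and 0.1, 262 without a trend, 52 at an adjusted p under 0.05 and 10 points, and 22 to 100 without 1 rat. With rat means set equal, which lowers every HCR minus LCR difference of a tile with all values by 1.91 points, differences turned negative for 16S and Nd1 (-1.78), tRNAs and Co1 (-1.79), Co2, Atp8 and Atp6 (-1.83), Co3 and Nd3 (-0.552), Nd5 and Nd6 (-1.58) and the control region (-1.76). The largest positive mitochondrial difference before was 0.417 points, so these changes of sign follow from the size of the shift. On the log2 scales Nd4l and Nd4 turned to 0.028 (offset 1) and 0.26 (offset 0.1), and Cytb to 0.037 (offset 0.1). Leaving out 1 rat gave 134 tile differences, of which 12 changed sign, with ranges of -0.374 to 0.00678 (16S), -0.119 to 0.277 (16S and Nd1), -0.108 to 0.346 (tRNAs and Co1), -1.48 to 0.626 (Co1), -0.0231 to 0.195 (Co2, Atp8 and Atp6), -0.351 to 0.0207 (Atp6 and Co3), -1.57 to 1.07 (Nd4l and Nd4), -0.386 to 0.181 (Nd5), -1.36 to 0.144 (Cytb) and -0.311 to 0.408 (control region). The mitochondrial mean minus the unmethylated nuclear level was -0.317 by medians, -0.00075 with a nuclear limit of 0.5%, -0.383 with 2% and -0.968 with 5%. It was -0.147 to -0.0759 without 1 rat. No paired analysis was made because the 2 lines are different rats and no pairs are named. The promoter list of mitochondrial DNA maintenance genes was not run, for want of an annotation of the build. Depth, not listed here, limits every value near 0%.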
